A study of Mus musculus with 27 samples.

Results

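The genes described here are 8 components of activin and Nodal signalling, a branch of the TGF-beta family: the ligand genes Inhbb and Nodal, the co-receptor gene Tdgf1, the inhibitor genes Lefty1, Lefty2 and Fst, the intracellular inhibitor gene Smad7 and the transcription factor gene Foxh1. They were taken as a named list, by matching symbols to Ensembl identifiers with GENCODE M21. The list was chosen with earlier results of these data known, so its counts of changed genes are not those of an unselected set. They are 8 of the 53801 genes in the deposited count table, and all 8 were among the 18363 genes that passed the filter on low counts. RNA came from TX1072, a hybrid mouse embryonic stem (ES) cell line with BL/6J and CAST-EiJ genomes, in which doxycycline switches on Xist, the RNA that silences the X chromosome. The cells of all 27 libraries carried SPEN-AID, a degron fusion of the Xist-binding repressor SPEN that auxin marks for destruction, and grew with serum, LIF at 1000 U/mL and the inhibitors CHIR99021 at 3 uM and PD0325901 at 1 uM, a mixture known as 2i that blocks GSK3 and MEK.

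One line made BglG-GFP, the fluorescent protein joined to an RNA-binding protein of bacteria, and is called the GFP line. The other made BglG-GFP-SPOC, which further carries the C-terminal SPOC domain that SPEN uses for repression, and is called the SPOC line. Each was left untreated, or given 1 ug/mL doxycycline over 24 h (Dox), or given auxin alone for 12 h and then both agents for 24 h (Dox+Auxin). There were 4 libraries per GFP group and 5 per SPOC group, and the design text of the submission speaks of 4 biological replicates. Each construct was present in 1 line, so construct and line cannot be told apart. No group analysed here had auxin without doxycycline. The Dox+Auxin cells also spent the longest time under treatment.

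A library held between 28936459 and 45489094 counts. On the CPM scale, counts relative to library size as edgeR gives them, Xist was at 5.43 to 7.82 in untreated GFP libraries and at 747 to 918 with Dox and 382 to 630 with Dox+Auxin. Untreated SPOC libraries had 1.03 to 1.69 in 4 cases, with 308 to 458 with Dox and 290 to 415 with Dox+Auxin, but SPOC untreated replicate 2 stood apart at 178. Some of the results that use that library, but not all, are therefore also given without it. The marker sums below include it. Spen transcript was at 158 to 214 CPM in GFP libraries without auxin and at 634 to 1164 with it, and at 326 to 369 and 973 to 1242 in the SPOC line, whose construct itself holds Spen sequence. Auxin acts on the protein, so these counts do not check the depletion of SPEN. All 12 ES cell markers examined reached 1 CPM. Summed over them, GFP libraries had 6330 to 6570 CPM untreated, 6666 to 6946 with Dox and 6076 to 6372 with Dox+Auxin. SPOC libraries had sums of 6567 to 6903, 6672 to 7100 and 6374 to 6853 CPM. At the step from Dox to Dox+Auxin, edgeR called 7 of the 12 lower and 3 higher in GFP cells, against 4 and 3 in SPOC cells. The summed level of 11 formative and primed markers was 816 to 823 CPM in untreated, 743 to 759 in Dox and 611 to 635 in Dox+Auxin libraries of the GFP line, and 715 to 800, 646 to 683 and 538 to 602 in the SPOC line. Their sum does not stand for the whole list. Between Dox and Dox+Auxin, 6 of the 11 rose and 2 fell in the GFP line, and 3 rose and 3 fell in the SPOC line. Of all genes at that step, 24.7% were higher and 22.9% lower in the GFP line, and 16.6% and 15.4% in the SPOC line.

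Markers of other cell types also moved with treatment. The summed level of 10 primitive endoderm markers was 313 to 399 CPM in GFP libraries without auxin and 374 to 478 with Dox+Auxin. It was 299 to 380 and 370 to 453 in the SPOC line, with Gata6 under 1 CPM in every library. Between Dox and Dox+Auxin, 3 of these 10 rose, 1 fell and 6 were not called in the GFP line. In the SPOC line 4 rose, none fell and 6 were not called. Of all genes at that step 24.7% and 16.6% were higher in the GFP and SPOC lines. Summed over 9 neural markers, with Neurog2 and Pax3 under 1 CPM in every library, the level was 159 to 202 CPM without auxin and 241 to 256 with Dox+Auxin in the GFP line, and 159 to 213 and 217 to 286 in the SPOC line. The neural markers did not rise as a list. Of the 7 tested between Dox and Dox+Auxin, 2 rose and 3 fell in the GFP line, and 2 rose and 2 fell in the SPOC line. The sum of 10 trophoblast markers was 30.2 to 67.3 CPM over all libraries, with Elf5, Hand1, Plac1 and Tpbpa under 1 CPM. At the same step 3 of the 8 tested rose and none fell in the GFP line, and 1 rose and 1 fell in the SPOC line. Among 11 fibroblast markers, 7 were under 1 CPM in every library, Col3a1, Dcn and Lum among them. Their summed level was 909 to 1020 CPM in untreated, 927 to 1147 in Dox and 723 to 1022 in Dox+Auxin libraries of the GFP line, and 853 to 981, 998 to 1131 and 902 to 1041 in the SPOC line. From Dox to Dox+Auxin 4 of the 5 tested fell and none rose in the GFP line, and 1 of 5 fell and none rose in the SPOC line. The part of these marker shifts in the changes described next was not tested. In these bulk libraries, fewer cells that express a gene and less RNA of it per cell cannot be told apart.

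Activins, dimers of inhibin beta subunits, and Nodal bind serine/threonine kinase receptors that phosphorylate SMAD2 and SMAD3, which join SMAD4 and act on DNA with partners such as FOXH1. Nodal needs a co-receptor of the EGF-CFC family, and Lefty proteins and follistatin act outside the cell to block Nodal and activin, while SMAD7 blocks the receptors from inside. Nodal, Lefty1 and Lefty2 are well-known targets of the pathway itself, which makes a loop of activation and feedback inhibition. In mouse ES cells the pathway is active through ligands the cells make, and in the embryo it patterns the epiblast and drives the formation of mesoderm and endoderm.

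On a scale per length, CPM per kilobase of exon averaged over the 27 libraries, the level was 181 for Tdgf1, 156 for Lefty2, 46.2 for Smad7, 40.8 for Nodal, 40.7 for Lefty1, 26.5 for Foxh1, 1.48 for Inhbb and 1.01 for Fst. The members that varied most were the scarcest ones. The highest group mean was 6.06 times the lowest for Inhbb and 2.96 times for Fst, against 2.65 for Lefty1, 1.90 for Foxh1, 1.80 for Lefty2, 1.27 for Smad7 and 1.24 for Nodal, with Tdgf1 between Lefty2 and Smad7. Counts per library ran from 66 to 529 for Inhbb and from 59 to 259 for Fst, so both carry more counting error than Tdgf1, which had 9786 to 25098.

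Promoter sequence was looked up in RefSeq for GRCm38.p6, since several members moved together across the treatments, and was matched for 3 of the 8 members. The 250 bases upstream of the start site are printed 5′ to 3′ on the strand of the gene, for Inhbb at chr1:119422249-119422498 on the minus strand, for Nodal at chr10:61417722-61417971 on the plus strand and for Tdgf1 at chr9:110946159-110946408 on the minus strand. Capitals mark matches, on either strand, to the SMAD binding element CAGAC, its palindrome GTCTAGAC or the FOXH1-type core AATNNACA; no capitals in this set overlap.
Inhbb: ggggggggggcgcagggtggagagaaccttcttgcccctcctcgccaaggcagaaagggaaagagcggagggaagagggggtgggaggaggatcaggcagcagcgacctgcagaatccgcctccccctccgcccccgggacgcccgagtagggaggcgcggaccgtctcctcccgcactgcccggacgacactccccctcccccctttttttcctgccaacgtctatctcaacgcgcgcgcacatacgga
Nodal: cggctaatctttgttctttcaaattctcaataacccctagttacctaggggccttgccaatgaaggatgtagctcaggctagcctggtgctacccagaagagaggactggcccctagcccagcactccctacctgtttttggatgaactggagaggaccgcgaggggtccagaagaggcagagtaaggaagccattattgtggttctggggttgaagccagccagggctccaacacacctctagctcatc
Tdgf1: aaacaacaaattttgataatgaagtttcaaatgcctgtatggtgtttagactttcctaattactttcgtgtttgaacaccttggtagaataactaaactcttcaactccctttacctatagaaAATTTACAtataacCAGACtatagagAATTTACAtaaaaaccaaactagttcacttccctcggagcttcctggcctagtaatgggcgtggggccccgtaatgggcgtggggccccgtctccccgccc
The Tdgf1 window held 1 CAGAC and 2 AATNNACA matches, and the Inhbb and Nodal windows held none of the 3 motifs, which says only that these letters are not in those windows. Of 32851 RefSeq windows of the same length, 42.2% held CAGAC, 0.2% held GTCTAGAC and 10.9% held AATNNACA. GC content was 68.0% for Inhbb, 53.2% for Nodal and 42.0% for Tdgf1.

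A gene is called changed here when edgeR's quasi-likelihood test gave a Benjamini-Hochberg adjusted p below 0.05 over all 18363 genes, and that value is written as the edgeR adjusted p. The comparisons within a line share libraries with each other, since each of the 3 groups enters a pair of them, and a move up from untreated to Dox and down from Dox to Dox+Auxin is therefore not independent evidence. With Dox, the ligand genes Inhbb and Nodal, Smad7 and Foxh1 rose and the inhibitors Lefty1 and Lefty2 fell in both lines. In the GFP line 4 members rose, 2 fell and 2 were not called, where 20.9% of all genes were called, 10.1% higher and 10.8% lower. In the SPOC line 5 rose, 2 fell and 1 was not called, where 13.5% of all genes were called, 6.16% higher and 7.33% lower. The untreated and Dox libraries did not overlap for 7 members in the GFP line, beside 27% of all genes, and for 4 in the SPOC line, beside 9.60%. The median of the members' absolute log2 fold changes was 0.36 in the GFP and 0.23 in the SPOC line, against 0.12 and 0.10 over all genes tested.

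Between Dox and Dox+Auxin, Inhbb, Nodal, Fst and Tdgf1 fell and Lefty1 and Foxh1 rose in both lines. In the GFP line 3 members rose, 5 fell and none was uncalled, against 47.6% of all genes called (24.7% higher, 22.9% lower), and all 8 had groups without overlap, as did 42.2% of all genes. Of the members in the SPOC line 2 rose, 4 fell and 2 were not called, against 32.0% of all genes called (16.6% higher, 15.4% lower), and 3 had groups without overlap, as did 18.6% of all genes. The median absolute log2 fold change was 0.46 and 0.38 for the members and 0.21 and 0.14 over all genes. Against untreated cells, Dox+Auxin left Inhbb and Tdgf1 lower and Foxh1 and Smad7 higher in both lines, with 3 members higher, 3 lower and 2 not called in the GFP line and 2 higher, 2 lower and 4 not called in the SPOC line. Of all genes 38.2% were called in the GFP line (19.9% higher, 18.4% lower) and 33.3% in the SPOC line (16.7% higher, 16.6% lower). Groups did not overlap for 6 members and 35.8% of all genes in the GFP line, and for 3 members and 19.1% in the SPOC line. The members' median absolute log2 fold change was then 0.48 and 0.14, beside 0.17 and 0.14 over all genes. Leaving out SPOC untreated replicate 2 changed none of these 6 pairs of counts. Without that library the SPOC Dox changes from untreated were 0.12 for Nodal, -0.24 for Lefty2, 0.20 for Smad7, 0.27 for Foxh1 and 0.49 for Fst on the log2 scale, and the SPOC Dox+Auxin changes were 0.15 for Smad7 and -0.47 for Tdgf1, all called by edgeR.

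**Figure D1:**
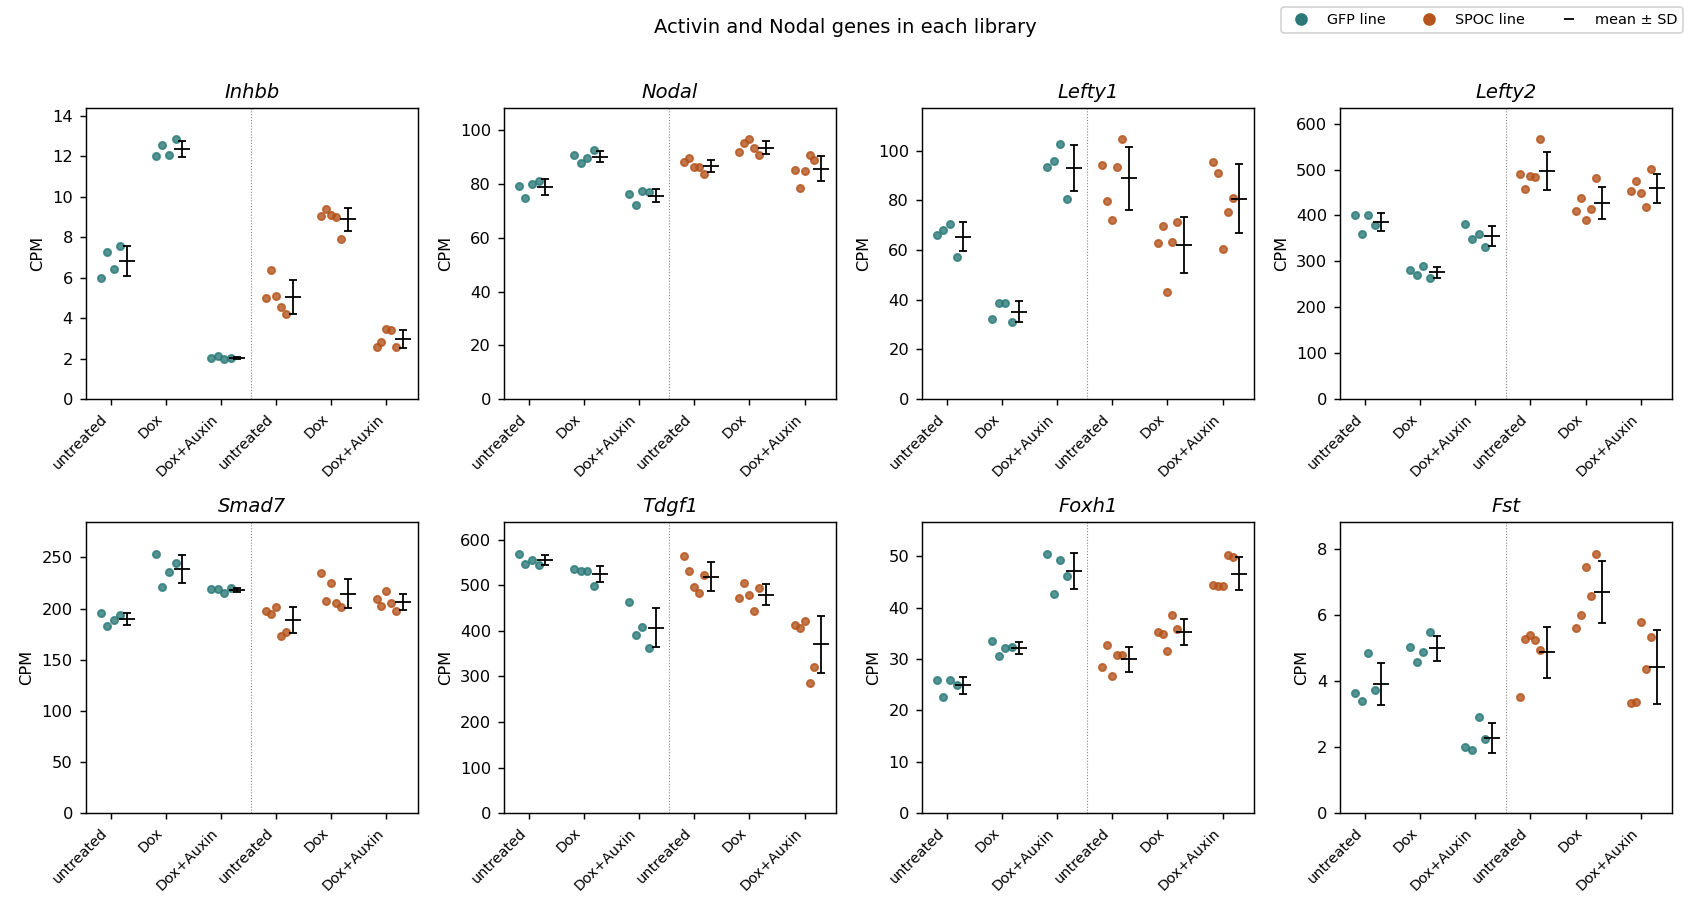
Level of each of the 8 genes, in TMM-scaled CPM (vertical axes, each starting at 0), in every library of the 6 groups, with points for libraries and bars for the group mean and SD (n = 4 in the GFP line, n = 5 in the SPOC line). Inhbb libraries sit at 12.0 to 12.8 with Dox and at 1.99 to 2.13 with Dox+Auxin in the GFP line, and Lefty1 runs the other way.

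Inhbb (ENSMUSG00000037035, GRCm38 chr1:119415465-119422248, minus strand) encodes the inhibin beta B subunit, which dimerises into activin B. In the GFP line its level was 5.98, 7.29, 6.45 and 7.58 CPM in the untreated libraries, 12.0, 12.6, 12.1 and 12.8 with Dox, and 2.04, 2.13, 1.99 and 2.02 with Dox+Auxin. The SPOC line had 5.02, 6.41, 5.11, 4.57 and 4.20 CPM untreated, 9.05, 9.40, 9.11, 9.01 and 7.93 with Dox, and 2.59, 2.85, 3.46, 3.42 and 2.60 with Dox+Auxin. In each line every Dox library was above every untreated library, and every Dox+Auxin library was below all of them. Inhbb rose by 0.86 on the log2 scale with Dox in the GFP line (SE 0.10, edgeR adjusted p = 3.7e-08) and by 0.81 in the SPOC line (SE 0.09, edgeR adjusted p = 1.6e-07). Between Dox and Dox+Auxin it fell by 2.60 in the GFP line (SE 0.11, edgeR adjusted p = 3e-17), which is 6.05-fold, and by 1.57 in the SPOC line (SE 0.10, edgeR adjusted p = 2.5e-13), which is 2.98-fold. Against untreated cells Dox+Auxin was lower by a log2 change of -1.74 (SE 0.12, edgeR adjusted p = 7.4e-13) and -0.76 (SE 0.10, edgeR adjusted p = 9.5e-07). Without SPOC untreated replicate 2, the highest of its group, the SPOC changes from untreated were 0.92 with Dox and -0.66 with Dox+Auxin. No left-out library ended any of these calls for Inhbb. Ordered by group mean, GFP Dox was highest at 12.4 ± 0.398 CPM (SD, n = 4), then SPOC Dox at 8.90 ± 0.565 (SD, n = 5), GFP untreated at 6.82 ± 0.741 (n = 4), SPOC untreated at 5.06 ± 0.836 (n = 5), SPOC Dox+Auxin at 2.98 ± 0.432 (n = 5) and GFP Dox+Auxin at 2.04 ± 0.0614 (n = 4). Among neighbours in that order, the GFP and SPOC untreated groups overlapped and the others did not.

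Nodal (ENSMUSG00000037171, chr10:61417972-61425338, plus strand), which encodes a ligand of the pathway, rose with Dox and fell from Dox to Dox+Auxin as Inhbb did, but by far smaller amounts. GFP libraries lay at 74.8 to 81.3 CPM untreated, 87.9 to 92.6 with Dox and 72.1 to 77.4 with Dox+Auxin. SPOC libraries lay at 83.7 to 89.6, 90.7 to 96.6 and 78.7 to 90.7 CPM. The Dox libraries of both lines stood clear above the untreated ones, whereas Dox and Dox+Auxin met at 90.7 CPM in the SPOC line. Nodal rose by 0.19 with Dox in the GFP line (SE 0.04, edgeR adjusted p = 0.00025) and by 0.11 in the SPOC line (SE 0.03, edgeR adjusted p = 0.031). The SPOC call was lost without untreated replicate 3, 4 or 5 or Dox replicate 2 or 3 (edgeR adjusted p = 0.053, 0.064, 0.076, 0.071 and 0.086), with values of 0.10 to 0.11, and with no filter on low counts (0.080). Nodal fell from Dox to Dox+Auxin by 0.25 in the GFP line (SE 0.04, edgeR adjusted p = 1.7e-06) and by 0.13 in the SPOC line (SE 0.03, edgeR adjusted p = 0.004). Dox+Auxin against untreated was not called in either line, with a ratio of 0.960 (95% interval 0.912 to 1.01, edgeR adjusted p = 0.22) in the GFP line and 0.986 (0.942 to 1.03, edgeR adjusted p = 0.69) in the SPOC line, where the log2 value turned from -0.02 to 0.0092 without Dox+Auxin replicate 2.

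Tdgf1 (ENSMUSG00000032494, chr9:110939603-110946158, minus strand) encodes Cripto, the EGF-CFC co-receptor through which Nodal reaches its receptors. The untreated GFP libraries held 570, 548, 556 and 545 CPM, the Dox libraries 535, 532, 531 and 499, and the Dox+Auxin libraries 464, 391, 409 and 362. Untreated SPOC values were 564, 531, 495, 483 and 522 CPM, the Dox values 472, 504, 479, 444 and 495, and the Dox+Auxin values 414, 407, 423, 286 and 321. All Dox+Auxin libraries were below all other libraries of their line, and SPOC Dox+Auxin replicates 4 and 5 were well below the other 3 of their group. Dox against untreated was not called, with a ratio of 0.946 (95% interval 0.835 to 1.07, edgeR adjusted p = 0.61) in the GFP and 0.923 (0.825 to 1.03, edgeR adjusted p = 0.42) in the SPOC line. Tdgf1 fell from Dox to Dox+Auxin by 0.37 in both lines (SE 0.09, edgeR adjusted p = 0.0021 in the GFP line; SE 0.08, edgeR adjusted p = 0.0013 in the SPOC line). Against untreated it fell by 0.45 (SE 0.09, edgeR adjusted p = 0.00048) and 0.49 (SE 0.08, edgeR adjusted p = 7.7e-05). Transcripts of Tdgf1 share 86 of their 2715 distinct runs of 100 bases (3.17%) with the pseudogene Tdgf1-ps1, so some of its reads could be split between the copies.

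Lefty1 (ENSMUSG00000038793, chr1:180935022-180938400, plus strand) and Lefty2 (ENSMUSG00000066652, chr1:180893108-180899103, plus strand) encode secreted antagonists of Nodal and lie on the same strand of chromosome 1. Because the way reads were shared between them bears on their counts, their coding sequences were compared: both are 1104 bases long and 1014 positions are identical (91.8%). A window of 100 bases, the read length, differed at a median of 4 positions, and 73 of 1005 windows were identical. The window at coding bases 212 to 311 shows that typical case, with capitals at the positions that differ.
Lefty1: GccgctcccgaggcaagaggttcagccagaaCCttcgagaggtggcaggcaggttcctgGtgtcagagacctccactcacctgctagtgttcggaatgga
Lefty2: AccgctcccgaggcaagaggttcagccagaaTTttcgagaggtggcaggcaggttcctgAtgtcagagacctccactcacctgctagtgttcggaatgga
Over their transcripts, 97 runs of 100 bases occur in both genes, 5.85% of those of Lefty1 and 3.86% of those of Lefty2. These are shares of distinct runs and not of reads, so they do not bound how far the counts of both genes are uncertain.

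In the GFP line Lefty1 was at 66.0, 67.9, 70.2 and 57.1 CPM untreated, at 32.1, 38.7, 38.8 and 31.1 with Dox and at 93.4, 95.9, 103 and 80.6 with Dox+Auxin. The 3 groups did not overlap, with Dox lowest and Dox+Auxin highest. For SPOC libraries Lefty1 was at 94.3, 79.6, 72.2, 93.2 and 104 CPM untreated, at 62.6, 69.7, 43.3, 63.3 and 71.1 with Dox and at 95.3, 91.0, 60.4, 75.4 and 81.0 with Dox+Auxin. There the Dox libraries were below the untreated ones, but Dox+Auxin overlapped both groups, and replicate 3 was the lowest library of each group. Matched by replicate number, which the labels do not say marks a pair, each SPOC Dox+Auxin library was above its Dox library. Lefty1 fell by 0.89 with Dox in the GFP line (SE 0.15, edgeR adjusted p = 0.00016) and by 0.52 in the SPOC line (SE 0.13, edgeR adjusted p = 0.011). The SPOC value was -0.55 without untreated replicate 2, and its call was lost in a fit of only the groups compared (-0.51, edgeR adjusted p = 0.056). Lefty1 rose from Dox to Dox+Auxin by 1.40 in the GFP line (SE 0.15, edgeR adjusted p = 9.9e-08), or 2.64-fold. The rise of 0.38 in the SPOC line (SE 0.13, edgeR adjusted p = 0.033) was lost without Dox replicate 3 (0.28, edgeR adjusted p = 0.092) and without Dox+Auxin replicate 1, 2 or 5 (0.31, 0.33 and 0.38, edgeR adjusted p = 0.097, 0.085 and 0.051), with no filter (edgeR adjusted p = 0.063) and in a fit of only the groups compared (edgeR adjusted p = 0.12). Against untreated, Dox+Auxin was higher by 0.51 in the GFP line (SE 0.15, edgeR adjusted p = 0.0079) and not called in the SPOC line, where the ratio was 0.908 (95% interval 0.760 to 1.09, edgeR adjusted p = 0.45).

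Lefty2 stood several times above Lefty1 per length and moved less. Its GFP libraries were at 402, 361, 401 and 380 CPM untreated, at 282, 270, 290 and 264 with Dox and at 382, 348, 360 and 331 with Dox+Auxin. The SPOC libraries were at 491, 457, 485, 485 and 566 CPM untreated, at 411, 438, 390, 415 and 482 with Dox and at 454, 474, 450, 418 and 502 with Dox+Auxin. The GFP Dox libraries were below every other library of both lines, while the 3 SPOC groups overlapped. With Dox, Lefty2 fell by 0.48 in the GFP line (SE 0.06, edgeR adjusted p = 3.1e-06) and by 0.22 in the SPOC line (SE 0.06, edgeR adjusted p = 0.011). From Dox to Dox+Auxin it rose by 0.36 in the GFP line (SE 0.06, edgeR adjusted p = 4.4e-05). The same step was not called in the SPOC line, at 0.11 (SE 0.06, edgeR adjusted p = 0.17), but it was without SPOC Dox replicate 5 (0.15, edgeR adjusted p = 0.037) and with a replicate block (0.11, edgeR adjusted p = 0.0069). Dox+Auxin against untreated was not called, at -0.12 (SE 0.06, edgeR adjusted p = 0.15) in the GFP and -0.11 (SE 0.06, edgeR adjusted p = 0.14) in the SPOC line, although a fit of only the GFP groups compared called it (-0.12, edgeR adjusted p = 0.044).

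Fst (ENSMUSG00000021765, chr13:114452290-114458951, minus strand) encodes follistatin, which binds and neutralises activins. Its GFP libraries were at 3.64, 3.40, 4.85 and 3.74 CPM untreated, at 5.03, 4.57, 4.89 and 5.49 with Dox and at 2.01, 1.90, 2.91 and 2.24 with Dox+Auxin. SPOC libraries were at 3.52, 5.28, 5.39, 5.24 and 4.95 CPM untreated, at 5.62, 5.99, 7.45, 6.59 and 7.87 with Dox and at 3.34, 3.35, 5.78, 4.36 and 5.33 with Dox+Auxin. Dox+Auxin was the lowest group of the GFP line without overlap, and in the SPOC line it overlapped both other groups. Fst fell by 1.13 from Dox to Dox+Auxin in the GFP line (SE 0.17, edgeR adjusted p = 3.4e-06), or 2.19-fold, and by 0.60 in the SPOC line (SE 0.14, edgeR adjusted p = 0.0015). Against untreated it fell by 0.78 in the GFP line (SE 0.18, edgeR adjusted p = 0.00069) and was not called in the SPOC line, with a ratio of 0.908 (95% interval 0.745 to 1.11, edgeR adjusted p = 0.50). With Dox it rose by 0.46 in the SPOC line (SE 0.14, edgeR adjusted p = 0.027), a call lost without untreated replicate 1 (0.37, edgeR adjusted p = 0.089), without Dox replicate 3 or 5 (0.42 and 0.40, edgeR adjusted p = 0.071 and 0.082) and with no filter (edgeR adjusted p = 0.052). In the GFP line the Dox change of 0.35 was not called (SE 0.16, edgeR adjusted p = 0.12), but it was without untreated replicate 3 (0.47, edgeR adjusted p = 0.0497) and in a fit of only the groups compared (edgeR adjusted p = 0.023). The annotated gene Gm47040 overlaps Fst on the other strand, and reads of the 2 genes may not be separated, since no source used here states how strand was counted.

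Smad7 (ENSMUSG00000025880, chr18:75367529-75395935, plus strand) encodes the inhibitory SMAD that blocks type I receptors. Its GFP libraries lay at 182 to 195 CPM untreated, 221 to 254 with Dox and 215 to 220 with Dox+Auxin, and its SPOC libraries at 173 to 202, 201 to 235 and 197 to 218 CPM. Untreated libraries were the lowest in the GFP line, and the SPOC groups overlapped. Smad7 rose with Dox by 0.33 in the GFP line (SE 0.05, edgeR adjusted p = 5.5e-06) and by 0.19 in the SPOC line (SE 0.04, edgeR adjusted p = 0.0033). From Dox to Dox+Auxin it fell by 0.13 in the GFP line (SE 0.05, edgeR adjusted p = 0.027), a call lost without Dox replicate 1 or 4 or Dox+Auxin replicate 3 (values of -0.10, -0.12 and -0.12, edgeR adjusted p = 0.13, 0.077 and 0.063), and was not called in the SPOC line (ratio 0.962, 95% interval 0.907 to 1.02, edgeR adjusted p = 0.35). Dox+Auxin remained above untreated by 0.20 in the GFP line (SE 0.05, edgeR adjusted p = 0.0014) and by 0.13 in the SPOC line (SE 0.04, edgeR adjusted p = 0.02). That SPOC call was lost without untreated replicate 4 or 5 or Dox+Auxin replicate 3 (values of 0.10, 0.11 and 0.11, edgeR adjusted p = 0.082, 0.067 and 0.060).

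Foxh1 (ENSMUSG00000033837, chr15:76668225-76669948, minus strand) encodes the forkhead factor that brings SMAD2 and SMAD3 to many Nodal targets. The GFP libraries were at 26.0, 22.5, 26.0 and 25.1 CPM untreated, 33.6, 30.6, 32.2 and 32.3 with Dox, and with Dox+Auxin 50.6, 42.7, 49.3 and 46.3. SPOC values were 28.4, 32.8, 26.7, 30.9 and 30.9 CPM untreated, 35.4, 34.8, 31.6, 38.6 and 35.8 with Dox, and 44.4, 44.2, 44.2, 50.2 and 50.0 with Dox+Auxin. In both lines the order was untreated, Dox, Dox+Auxin, and the untreated and Dox libraries of the SPOC line were the only ones to overlap between successive groups. Alone among the 8 genes, Foxh1 was called higher at both steps in each line. The Dox step was 0.37 in the GFP line (SE 0.07, edgeR adjusted p = 8.9e-05) and 0.23 in the SPOC line (SE 0.06, edgeR adjusted p = 0.007). The Dox+Auxin step was 0.56 (SE 0.06, edgeR adjusted p = 2.3e-08) and 0.40 (SE 0.06, edgeR adjusted p = 2.6e-06). From untreated to Dox+Auxin the log2 change was 0.93 in the GFP line (SE 0.06, edgeR adjusted p = 2.6e-12) and 0.64 in the SPOC line (SE 0.06, edgeR adjusted p = 9.7e-10), or 0.68 without SPOC untreated replicate 2. No left-out library ended these calls.

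**Figure D2:**
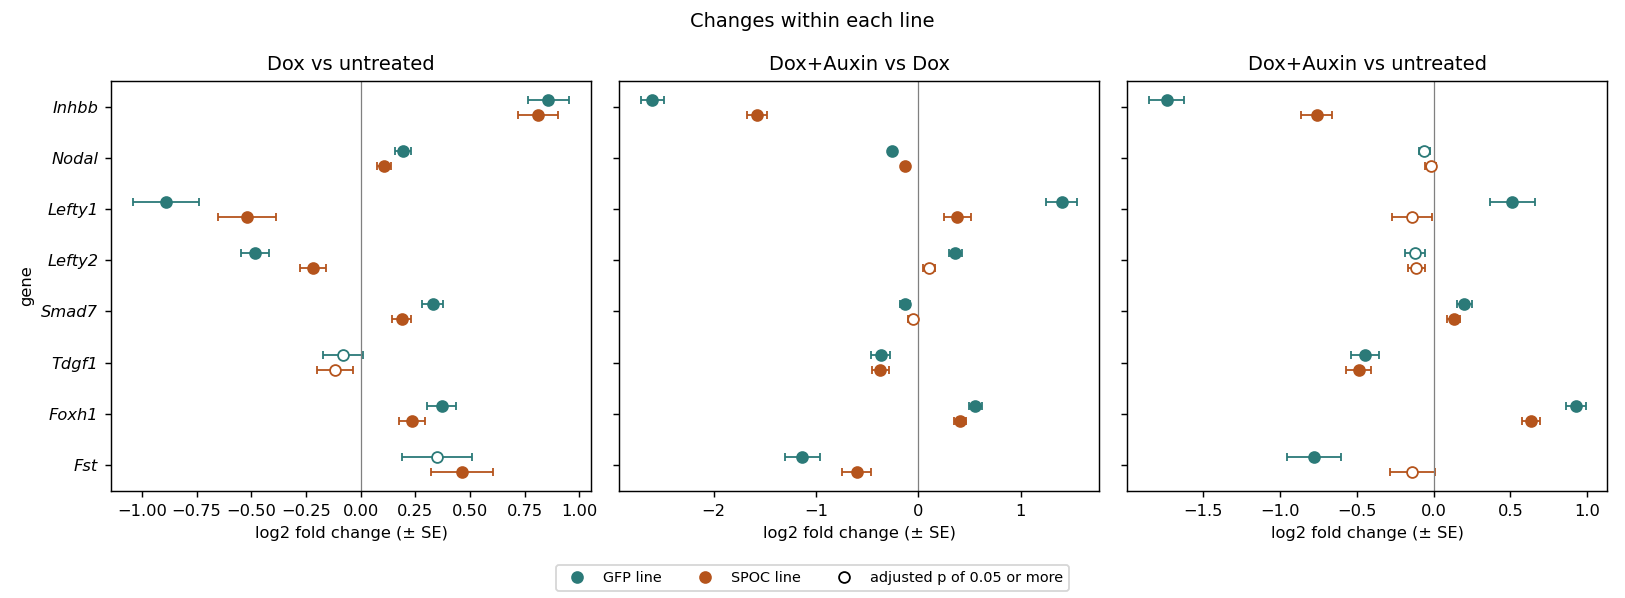
Log2 fold change of each gene (horizontal axis, with its SE) in the 3 comparisons within each line, filled where the edgeR adjusted p was below 0.05. Inhbb has the largest fall from Dox to Dox+Auxin among the 8 genes in both lines (-2.60 and -1.57), and Foxh1 is to the right of 0 in all 3 panels.

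The SPOC line was compared with the GFP line at each treatment, a comparison of 1 line with 1 line. In untreated cells 4 members were higher in the SPOC line, 1 was lower and 3 were not called, against 11.6% of all genes called (5.79% higher, 5.77% lower). Groups did not overlap for 4 members and 12.9% of all genes. Lefty2 was higher by 0.36 (SE 0.06, edgeR adjusted p = 0.00056), Foxh1 by 0.27 (SE 0.06, edgeR adjusted p = 0.0069), Nodal by 0.14 (SE 0.04, edgeR adjusted p = 0.012) and Lefty1 by 0.44 (SE 0.14, edgeR adjusted p = 0.044), while Inhbb was lower, at -0.43 (SE 0.10, edgeR adjusted p = 0.0052). The Lefty1 call was lost without any 1 of the 4 GFP libraries (0.38 to 0.48, edgeR adjusted p = 0.059 to 0.12) and without SPOC replicate 1, 4 or 5 (0.42, 0.42 and 0.38, edgeR adjusted p = 0.081, 0.085 and 0.11). The Nodal call was lost without GFP replicate 2 (0.11, edgeR adjusted p = 0.072), which left 3 members called, as did no filter on low counts. Without SPOC replicate 2 the values were 0.39 for Lefty2, 0.23 for Foxh1, 0.13 for Nodal, 0.48 for Lefty1 and -0.53 for Inhbb, all still called by edgeR.

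With Dox, 2 members were higher and 2 lower in the SPOC than in the GFP line (10.7% of all genes called, 5.36% higher and 5.33% lower), and 4 had no overlap, beside 13.3% of all genes. Those 4 were Inhbb, Lefty1, Lefty2 and Fst, and the called Smad7 overlapped. The Fst difference of 0.43 was not called (SE 0.15, edgeR adjusted p = 0.060). DESeq2 called 5 members. Lefty1 was higher by 0.81 (SE 0.15, edgeR adjusted p = 0.00096) and Lefty2 by 0.63 (SE 0.06, edgeR adjusted p = 3.7e-07). Inhbb was lower, at -0.48 (SE 0.09, edgeR adjusted p = 0.00069), and so was Smad7, at -0.15 (SE 0.05, edgeR adjusted p = 0.028). The Smad7 call was lost in a fit of only the groups compared (edgeR adjusted p = 0.076), without SPOC Dox replicate 2, 4 or 5 (-0.14, -0.14 and -0.13, edgeR adjusted p = 0.067, 0.082 and 0.085) and without GFP Dox replicate 1, 3 or 4 (-0.12, -0.16 and -0.14, edgeR adjusted p = 0.13, 0.051 and 0.078). With Dox+Auxin 4 members were higher in the SPOC line and none lower (24.6% of all genes called, 11.2% higher and 13.5% lower), and 4 had no overlap, beside 17.5% of all genes. Those higher were Fst by 0.96 (SE 0.17, edgeR adjusted p = 0.00012), Inhbb by 0.55 (SE 0.12, edgeR adjusted p = 0.0013), Lefty2 by 0.37 (SE 0.06, edgeR adjusted p = 8.5e-05) and Nodal by 0.18 (SE 0.04, edgeR adjusted p = 0.00047). Inhbb was thus lower in the SPOC line in the first 2 conditions and higher in the third. Tdgf1 was not called between lines under any treatment, with ratios of 0.936 (95% interval 0.831 to 1.05), 0.913 (0.811 to 1.03) and 0.911 (0.808 to 1.03).

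Whether a treatment changed a gene by different amounts in the lines was tested as the SPOC change minus the GFP change. For the step from Dox to Dox+Auxin, 8.14% of all genes (3.49% higher, 4.65% lower) and 2 of the 8 members differed. The difference was 1.02 for Inhbb (SE 0.15, edgeR adjusted p = 8.2e-05), which fell less in the SPOC line, and -1.02 for Lefty1 (SE 0.20, edgeR adjusted p = 0.003), which rose less there. For the other 6 the difference was not called. Lefty2 came nearest at -0.26 (SE 0.09, edgeR adjusted p = 0.067), and was called by DESeq2 (adjusted p = 0.033) and without SPOC Dox replicate 3, SPOC Dox+Auxin replicate 5 or GFP Dox+Auxin replicate 4 (-0.29 in each, edgeR adjusted p = 0.030, 0.040 and 0.038). Nodal had 0.13 (SE 0.05, edgeR adjusted p = 0.12), and 0.16 without SPOC Dox+Auxin replicate 2 (edgeR adjusted p = 0.037). Fst had 0.53 (SE 0.22, edgeR adjusted p = 0.15) and Foxh1 -0.15 (SE 0.09, edgeR adjusted p = 0.31). For Tdgf1 the difference was -0.0044 (SE 0.12).

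For Dox+Auxin against untreated, 2.40% of all genes (1.20% in each direction) and 1 member, Inhbb, differed between lines, by 0.98 (SE 0.16, edgeR adjusted p = 0.0009), or 1.08 without SPOC untreated replicate 2. Lefty1 had -0.65 (SE 0.20, edgeR adjusted p = 0.081) and Foxh1 -0.29 (SE 0.09, edgeR adjusted p = 0.071). Lefty1 was called without GFP Dox+Auxin replicate 4 (-0.71, edgeR adjusted p = 0.048) and Foxh1 without SPOC untreated replicate 3 or GFP Dox+Auxin replicate 2 (-0.33 in each, edgeR adjusted p = 0.040 and 0.046), which made the count 2 in each case, and DESeq2 called both (adjusted p = 0.025 and 0.042). Fst had 0.64 (SE 0.23, edgeR adjusted p = 0.13). For Dox against untreated 0.240% of all genes (0.229% higher, 0.0109% lower) and none of the 8 members differed by edgeR or by DESeq2. At an unadjusted p below 0.05 there were 2 members, Lefty2 (0.26, SE 0.09, edgeR adjusted p = 0.33) and Smad7 (-0.14, SE 0.06, edgeR adjusted p = 0.57), named after their values were seen. The interval for Inhbb, a ratio of 0.968 (95% interval 0.808 to 1.16), bounds how far its rise with Dox could differ between the lines.

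Other genes of the pathway were followed as 6 lists of 70 genes in all, of which 59 passed the filter on low counts. With Dox, 5 rose and 8 fell in the GFP line, and 5 rose and 5 fell in the SPOC line, where 20.9% and 13.5% of all genes were called. With a replicate block the total of 13 in the GFP line became 23 and the total of 10 in the SPOC line became 21, and the SPOC total was 5 without Dox replicate 3 and 6 with no filter. From Dox to Dox+Auxin, 25 rose and 12 fell in the GFP line and 16 rose and 10 fell in the SPOC line. Among all genes at that step 24.7% were higher and 22.9% lower in the GFP line, and 16.6% were higher and 15.4% lower in the SPOC line, and the counts of each list that follow are to be read against these shares. Their median log2 change at that step was 0.10 and 0.04, beside 0.00 and -0.01 over all genes tested. Against untreated, Dox+Auxin had 19 higher and 16 lower in the GFP line and 12 higher and 9 lower in the SPOC line, or 8 and 8 without SPOC untreated replicate 2, where 38.2% and 33.3% of all genes were called.

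Among 12 other ligand genes 7 were tested, and from Dox to Dox+Auxin 2 fell in the GFP line, Tgfb1 (-1.52, edgeR adjusted p = 1.6e-07) and Gdf9 (-0.93, edgeR adjusted p = 0.02), the latter lost without GFP Dox replicate 1 (-0.79) or Dox+Auxin replicate 2 (-0.82) and with no filter (-0.94), while the count became 4 with a replicate block. Tgfb1 also fell in the SPOC line (-0.90, edgeR adjusted p = 0.00035), where Gdf11, a ligand that signals through activin receptors, rose (0.38, edgeR adjusted p = 0.002). Tgfb1, which encodes TGF-beta 1, was at 1.44 ± 0.14 CPM in GFP Dox and 0.506 ± 0.15 in GFP Dox+Auxin libraries (SD, n = 4). Inhba, the other activin beta subunit gene commonly studied, had group means of 0 in 5 groups and 0.00695 CPM in the SPOC untreated group and was not tested. Of 8 receptor and co-receptor genes, 7 were tested, and 3 rose in the GFP and 4 in the SPOC line, none falling, where 47.6% and 32.0% of all genes were called in either direction, so that the GFP count of 3 in 7 is near the share over all genes. They included Tgfbr3, which encodes the co-receptor betaglycan (0.71 and 0.58), Tgfbr1, which encodes a type I receptor (0.18 in both lines), and Cfc1, a relative of Tdgf1 with a level under 1 CPM in every group mean (1.06 and 0.77). The SPOC call of Cfc1 was lost without Dox replicate 1, 3 or 5 or Dox+Auxin replicate 2 or 4 (0.57 to 0.75, edgeR adjusted p up to 0.11) and in a fit of only the groups compared (0.76, edgeR adjusted p = 0.072). The GFP call of Tgfbr1 was lost without Dox+Auxin replicate 4 (0.12, edgeR adjusted p = 0.10) and with no filter (0.17, edgeR adjusted p = 0.053).

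All 8 genes for other extracellular inhibitors and processing factors were tested, and 3 rose and 3 fell in the GFP line against none and 2 in the SPOC line at the same step, the latter count becoming 4 with a replicate block. Cer1, which encodes the secreted Nodal and BMP antagonist Cerberus, rose in the GFP line (1.68, edgeR adjusted p = 0.00014) from 0.168 ± 0.091 to 0.547 ± 0.10 CPM (SD, n = 4). Ltbp3, whose product binds latent TGF-beta, rose there (0.64) and Pcsk6, a convertase that processes Nodal, fell (-0.43, edgeR adjusted p = 1.4e-08). Those that fell in the SPOC line were Bambi, a pseudoreceptor gene (-0.37), and Ltbp1 (-0.37). Of 13 genes for SMADs and intracellular regulators, 6 rose and 4 fell in the GFP line and 3 rose and 3 fell in the SPOC line. These changes were small: Zfyve9, which encodes the SMAD anchor SARA, rose (0.37 and 0.25), Skil, which encodes the SMAD repressor SnoN, fell (-0.28 and -0.25), Smad3 rose in the GFP line (0.36) and Smad6 fell in the SPOC line (-0.30).

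Of 10 genes induced by activin or Nodal in early lineages 6 were tested, and 4 rose in the GFP and 1 in the SPOC line from Dox to Dox+Auxin, with none falling, where 24.7% and 16.6% of all genes were higher. The SPOC count of 1 in 6 is at that share. Those that rose in the GFP line included Gsc, an organiser factor gene (0.77, edgeR adjusted p = 0.0002), and T, the primitive streak gene (0.71, edgeR adjusted p = 0.00043). Gsc was the one called in the SPOC line (0.49, edgeR adjusted p = 0.0084), and the count there was 2 without Dox replicate 3 or 5 or Dox+Auxin replicate 4, with the DESeq2 test and with a replicate block. The level of T was 12.3 ± 0.177 CPM in GFP Dox and 20.2 ± 1.01 in GFP Dox+Auxin libraries (SD, n = 4). In the BMP branch, which shares SMAD4 but uses SMAD1, SMAD5 and SMAD9, 18 of 19 genes were tested, and 9 rose and 3 fell in the GFP line and 7 rose and 4 fell in the SPOC line, beside 47.6% and 32.0% of all genes called. The SPOC total of 11 was 7 in a fit of only the groups compared. The homeobox genes Msx1 (1.98 and 0.75) and Msx2 (1.66 and 1.02) rose in both lines, Id1, a direct BMP target, fell in the GFP line (-1.62, edgeR adjusted p = 3.3e-07), and Nog, the gene of the BMP antagonist Noggin, fell in the SPOC line (-0.83, edgeR adjusted p = 0.013), a call lost without Dox replicate 1 or 4 (-0.73 and -0.71).

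**Figure D3:**
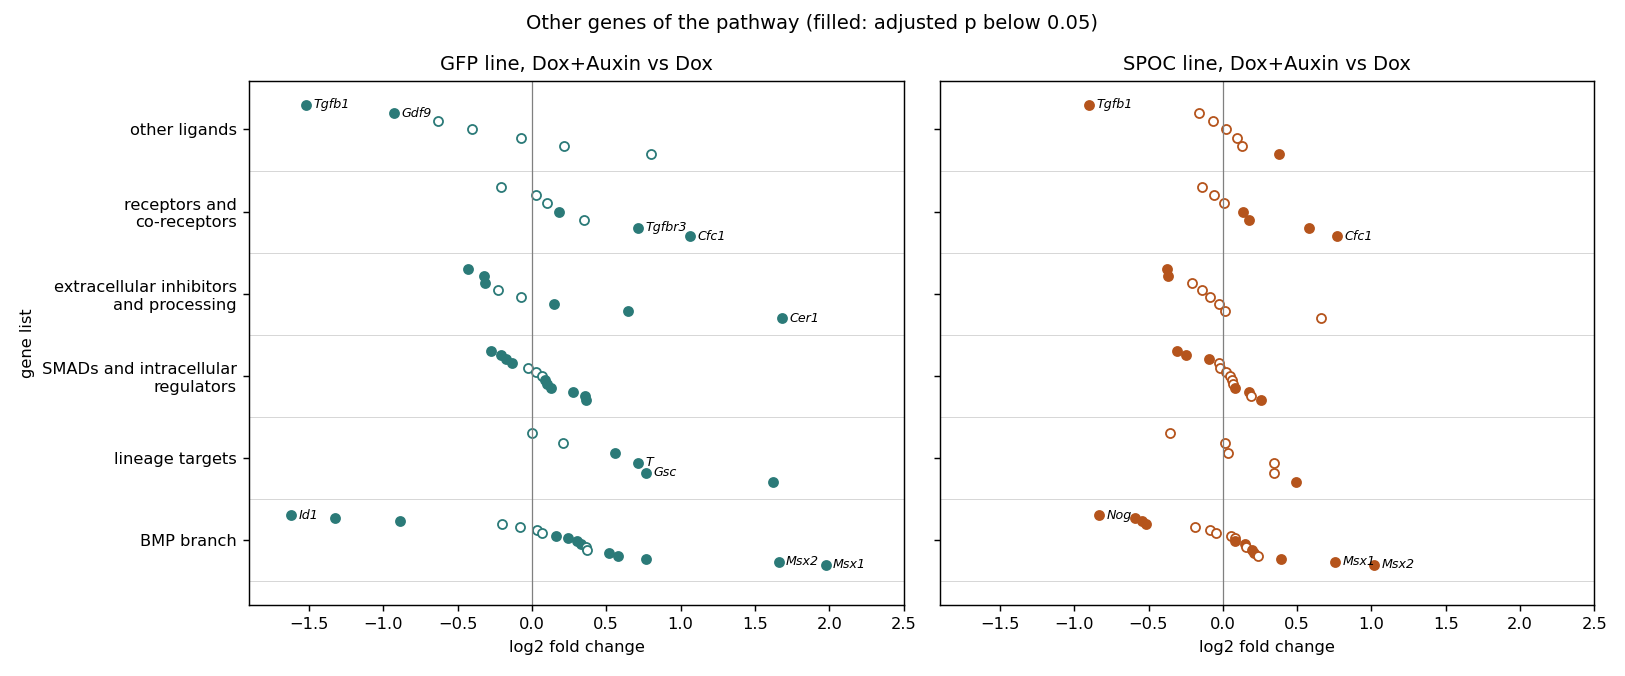
Log2 fold change from Dox to Dox+Auxin (horizontal axes, same range in both panels) of the 59 tested pathway genes other than the 8 described, grouped by list, with 1 point per gene and filled points where the edgeR adjusted p was below 0.05. Receptor genes called lie to the right of 0 in both panels, and Tgfb1 is the gene farthest to the left among the ligands (-1.52 and -0.90).

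Genes whose pattern was most like that of each member were taken as the 2 with the smallest root mean square difference from it in log2 CPM, each gene centred on its own mean, over the 27 libraries and 12366 genes. The libraries share their groups, so this is a description. Nearest to Inhbb were Dusp6 (0.24) and Klf12 (0.28), and nearest to Lefty1 were Sohlh2 (0.13) and Herc6 (0.17). For Foxh1 they were Zbtb17 (0.11) and Tnrc18 (0.11), for Tdgf1 Mfge8 (0.10) and Mkrn1 (0.10), and for Fst Dab1 (0.20) and Myc (0.20). For Lefty2 they were Ccdc191 (0.13) and Ppp1r1a (0.14), for Nodal Ino80c (0.05) and Arih2 (0.05), and for Smad7 Atp9a (0.08) and Kif18b (0.08). A small difference does not mean a close match where the member itself varied little. The member's own root mean square spread was 0.87 for Inhbb, 0.51 for Fst, 0.49 for Lefty1 and 0.34 for Foxh1. It was 0.28 for Lefty2, 0.25 for Tdgf1, 0.13 for Smad7 and 0.11 for Nodal. Smad7 had the lowest correlations with its neighbours (r 0.80 and 0.79). No member was among the 2 nearest genes of another, Lefty1 and Lefty2 included. The measure depends on the size of the changes as well as their pattern. Since Lefty1 varied more than Lefty2, it cannot show whether the patterns of these genes differ.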

How the data were processed

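The 27 libraries were prepared with TruSeq from RNA with a RIN above 9 and sequenced as paired ends of 100 bases, per the labels' protocols. The submitters' processing notes list the build mm10 and, without saying what each did, DESeq2 1.18.1, featureCounts, STAR 2.5.3a, Trim Galore 0.4.4 and Picard 2.18.2. No source used here states the annotation or the strand setting. The values used are the raw counts per gene that the authors deposited, both alleles together, per the file headers. A further 81 per-library columns, of RPKM and of allelic counts, were not used.

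After filterByExpr, which kept 18363 genes, and TMM scaling, all 27 libraries were fitted with 1 term per group by the robust quasi-likelihood method of edgeR 4.0.16 (R 4.3.3). The 12 comparisons were the 3 within each line, the lines at each of 3 treatments, and the 3 differences between lines. P-values were adjusted by Benjamini-Hochberg over all genes and called below 0.05. The SE was the log2 fold change over the root of F, and 95% intervals are 1.96 SE to each side on that scale. CPM are TMM-scaled. Per-kilobase values used GENCODE M21 exon lengths. The steps were tested on simulated counts. Alternatives were DESeq2 size factors, DESeq2 1.42.0, no filter, a replicate block, only the groups compared, and each library left out. Leaving out SPOC untreated replicate 2 where it is in neither group was added after seeing the data. Pathway genes named are up to 3 called per list with the largest change. The members, lists and markers were chosen with earlier results of these data known. No 2 libraries agreed within sampling noise, the lowest chi-square per gene being 1.75. The p-values measure the spread between libraries, whose separate cultures only the design text states. Smad7 sequence is not shown, and some genes of the lists are not reported here by name.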

Additional observations from a re-analysis of the deposited data

Results flagged for a closer look

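In 48 sets of libraries, 1 for each of the 8 genes in each group, a single library was looked for that lay far from the rest by Dixon's criterion, which chance meets in about 1 in 20 sets. It was met 3 times. Inhbb in SPOC Dox replicate 5 was at 7.93 CPM, with the other 4 libraries at 9.01 to 9.40. Tdgf1 in GFP Dox replicate 4 was at 499 CPM, with the others at 531 to 535. Fst in SPOC untreated replicate 1 was at 3.52 CPM, with the others at 4.95 to 5.39, and the SPOC rise of Fst with Dox was not called without that library.

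A pair of genes changed by different amounts in the 2 lines, by edgeR's test of the difference. The SPOC change of Inhbb minus the GFP change was 0.98 for Dox+Auxin against untreated and 1.02 for Dox+Auxin against Dox. For Lefty1 it was -1.02 for Dox+Auxin against Dox. Both differences hold for 1 line of each construct, and construct and line cannot be told apart.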

How the results depend on the processing

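Of 104 gene results, 84 were called, and over 1637 values under the alternatives 54 dropped out of a call, 24 entered one and 1 turned direction, that of Nodal in SPOC Dox+Auxin against untreated (0.0092 without SPOC Dox+Auxin replicate 2, in a range of -0.0413 to 0.0092 with a library left out). The number of members called was within 1.5 times its main value except in 4 comparisons. For SPOC against GFP untreated, 5 members became 3 with no filter, and 3 to 5 with a library left out. For the line difference in Dox+Auxin against untreated, 1 became 4 with a replicate block and 3 with the DESeq2 test, and 1 to 2 with a library left out. For that in Dox+Auxin against Dox, 2 became 4 with the replicate block, and for that in Dox against untreated 0 became 1.

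Over all genes, SPOC Dox against untreated had 2478 calls and 4145 with the replicate block. SPOC against GFP untreated had 2122, and 1035 to 2171 with a library left out, the fewest without GFP untreated replicates 1 (1076) and 2 (1035) and SPOC untreated replicate 5 (1406). SPOC against GFP with Dox had 1962, with 1298 and 1260 without GFP Dox replicates 1 and 2. The line difference in Dox+Auxin against untreated had 441, with 2006 (block), 838 (DESeq2), 211 (only the groups compared) and 207 to 865 (a library left out). That in Dox+Auxin against Dox had 1495 and 3317 (block), and that in Dox against untreated 44, 294 (block) and 91 (DESeq2).

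The labels do not say that replicate numbers mark a shared batch, so the main fit had no replicate block. Libraries of 1 line with the same number nevertheless had correlated deviations from their group means (median r 0.29, -0.07 to 0.64 in 27 pairs, 22 above 0.1). Pairs of 1 line with different numbers had a median r of -0.08, with 5 of 96 above 0.1. Of 54 matches of a library with another group of its line, 45 were highest with its own number. The main p-values do not take this link between libraries into account. With the replicate block, the uncalled Fst change in GFP Dox against untreated (0.36) became called. So did the Lefty2 changes in Dox+Auxin against untreated (-0.12 and -0.11) and the Lefty2 step from Dox to Dox+Auxin in the SPOC line (0.11). Line differences of Lefty1, Foxh1, Fst and Lefty2 that were uncalled in the main fit also became called. The Lefty1 difference in SPOC against GFP untreated, called in the main fit, lost its call with the block (0.40). Inhbb and Fst had the fewest counts of the 8 members, as few as 66 and 59 in a library. How far depth limited their results was not tested.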
